A study of Homo sapiens with 3 samples.

Results

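The genes described here are 10 members of a pair of calcium-responsive protein families: the annexins ANXA1, ANXA2, ANXA3, ANXA4 and ANXA5, and the S100 genes S100A4, S100A6, S100A10, S100A11 and S100A14. They were chosen by name, with earlier results of these data known. Counts of members called are therefore set beside those of all loci for description only, not as a test. Each member was found at 1 locus in every library, out of 55827 gene names shared by the 3 libraries. Their RNA was measured in PLC, an established cell line from a human liver cancer, by sequencing 1 library per group. The control cells (labelled NTC) received a control hairpin virus, the shDIS3L2 cells received short hairpin RNA against DIS3L2, and the shHNRNPU cells received short hairpin RNA against HNRNPU (labelled shhnRNP U). All 3 cultures were therefore virus-infected, and all were collected at 48 hours. The hairpins were not described further in the sources used here, and each group is a single culture of 1 line. Without replicates, none of the differences could be set against the spread between cultures, and no p-value is given.

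Annexins bind negatively charged phospholipids when calcium rises, and so attach to the inner face of the plasma membrane and to endosomes, where they organise membrane domains, vesicle traffic and the resealing of wounds. S100 proteins are small EF-hand proteins that work mostly as dimers, and several of them dock onto the N-terminal tail of an annexin when calcium is bound. S100A10 is the exception in its family: it no longer binds calcium and is held in a complex with ANXA2, where a pair of S100A10 chains joins a pair of ANXA2 chains. In normal liver the hepatocyte expresses several of these genes at a low level, and ANXA2 and a number of S100 genes are known for higher levels in liver tumours.

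Values are FPKM, fragments counted relative to transcript length and to the total mapped in the library. Where each member is described, and for a few other genes, a value is followed in parentheses by the interval the authors deposited with it. The level of that interval is not stated, and it covers the estimate within 1 library, not the spread between cultures. A log2 ratio compares FPKM plus 1 between libraries. A gene is called higher or lower when that ratio reaches 1 or -1, the intervals do not overlap and both estimates have the status OK. Among the 11445 loci with a mean FPKM of at least 1 the intervals lay apart for 57.7% of genes between shDIS3L2 and control, so intervals that do not overlap are common in these files. The median log2 ratio of those loci was 0.09 in shDIS3L2 and 0.11 in shHNRNPU against control. Both comparisons use the same control library.

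The targeted RNAs were lower in the libraries named for them. DIS3L2, an exoribonuclease that degrades uridylated RNA, was at 7.61 in control, 3.23 in shDIS3L2 and 11.2 FPKM in shHNRNPU. Its locus was merged with AC068134.10 in control. HNRNPU, the gene of the nuclear RNA-binding protein hnRNP U, was at 178, 232 and 33.5 FPKM in the same order, at a locus merged with its antisense gene. All 10 hepatocyte markers were at 1 FPKM or more in control and their sum ran from 6780 FPKM in shDIS3L2 to 17673 in control, while ALB, which encodes the main secreted protein of hepatocytes, was low at 0.856 to 11.8. Of 6 fibroblast and stellate markers and the 3 endothelial markers found, 0 reached 1 FPKM in any library. The control table held 0 mitochondrial entries against 11 and 10 in the knockdowns. It is not known whether this bears on how the control FPKM were scaled, which would touch each ratio with control. Rescaling each library by its median of ratios shifts the log2 ratio of FPKM down by 0.12 in shDIS3L2 and 0.18 in shHNRNPU against control, and by less for low genes once the pseudocount is added.

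The members covered almost the whole range of expression. ANXA2, S100A10, ANXA5 and S100A11 were the most abundant in every library, and ANXA4 and ANXA3 were intermediate. S100A4, S100A14 and ANXA1 lay between 2.13 and 18.2 FPKM, and S100A6 was near 0. In control ANXA2 and S100A10 led with overlapping intervals, followed by ANXA5, S100A11 and ANXA4, each apart from the next. In shDIS3L2 ANXA2 led alone, S100A10 came next, and S100A11 and ANXA5 overlapped. In shHNRNPU ANXA2 led, ANXA5 came next, and S100A10 and S100A11 overlapped. The neighbours S100A4 and S100A14 overlapped in control and in shHNRNPU, S100A14 and ANXA1 overlapped in both knockdown libraries, and S100A14 and S100A6 overlapped in shDIS3L2.

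**Figure D1:**
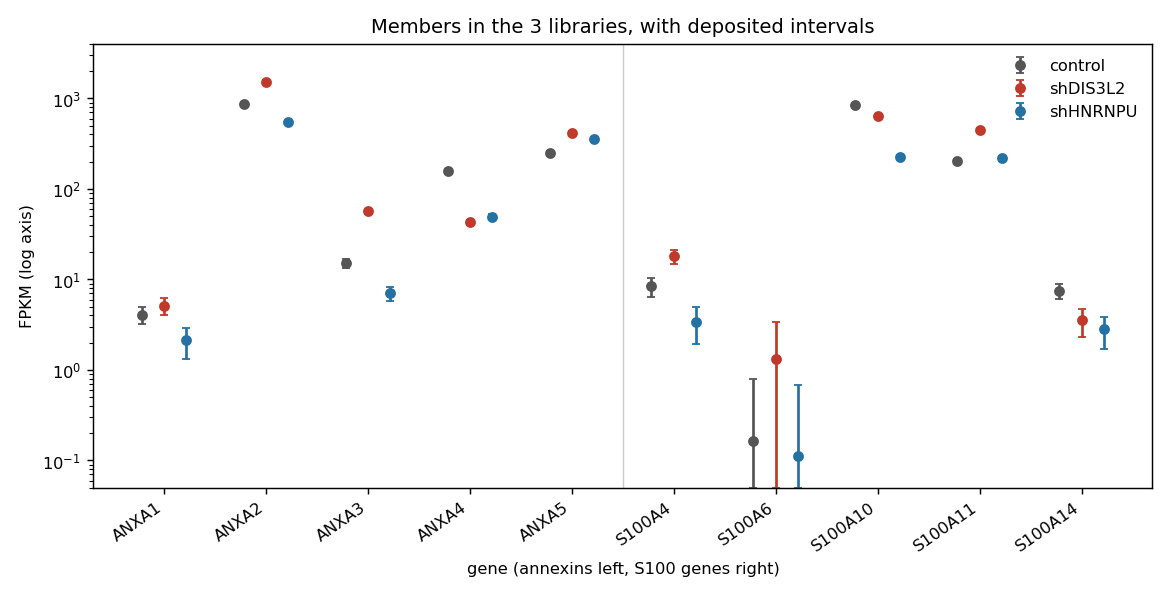
FPKM of the 10 genes on a log axis, with 1 point per library (grey control, red shDIS3L2, blue shHNRNPU) and bars for the deposited intervals. ANXA3 and S100A4 are highest in shDIS3L2 and lowest in shHNRNPU, ANXA4 is low in both knockdown libraries, and the bars of S100A6 run below the axis because its lower bounds are 0.

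ANXA2 and S100A10 form the complex, and their RNAs did not keep step across the libraries. ANXA2 (annexin A2, hg19 chr15:60639333-60695082, minus strand) was at 871 FPKM (838 to 905) in control, against 1516 (1451 to 1581) in shDIS3L2 and 544 (519 to 568) in shHNRNPU. The 3 intervals lay apart, with shDIS3L2 highest and shHNRNPU lowest. Between the knockdowns the level was 2.79-fold lower in shHNRNPU (2.56 to 3.04 from the interval bounds), a log2 ratio of -1.48 that passes the size rule, while the log2 ratios against control, 0.80 and -0.68, do not. S100A10 (also called p11, chr1:151955391-151966866, minus strand) was at 845 (814 to 876) in control, against 634 (607 to 660) in shDIS3L2 and 225 FPKM (212 to 237) in shHNRNPU. Here control was highest, and shHNRNPU was lower than control by 3.76-fold (3.44 to 4.12), log2 ratio -1.91, and lower than shDIS3L2 with a log2 ratio of -1.49. In shDIS3L2 against control its log2 ratio was -0.41.

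The ratio of ANXA2 to S100A10 in FPKM was 1.03 in control, with 0.957 to 1.11 allowed by the interval bounds. It was 2.39 (2.2 to 2.61) in shDIS3L2 and 2.42 (2.19 to 2.67) in shHNRNPU. The RNAs of the partners were thus near equal per length in control, and both knockdown libraries held more ANXA2 than S100A10, in shDIS3L2 with ANXA2 up and S100A10 slightly down, in shHNRNPU with both below control and S100A10 further. Because these are RNA levels of single cultures, fewer cells expressing a gene and less RNA per cell cannot be told apart. The processed copies ANXA2P1, ANXA2P2 and ANXA2P3, which resemble ANXA2 in sequence, were listed at no more than 0.0960 FPKM in any library.

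S100A11 and ANXA1 are the other textbook pair, in which S100A11 binds the ANXA1 tail. S100A11 (calgizzarin, chr1:152004982-152020383, minus strand) was at 204 FPKM (191 to 217) in control, against 448 (423 to 472) in shDIS3L2 and 218 (204 to 232) in shHNRNPU. Only shDIS3L2 stood out: the level was 2.19-fold that of control (1.95 to 2.47), a log2 ratio of 1.13, and shHNRNPU was lower than shDIS3L2 with a log2 ratio of -1.04. Control and shHNRNPU overlapped, with a log2 ratio of 0.09 that became -0.09 after rescaling. ANXA1 (annexin A1 or lipocortin, an anti-inflammatory protein induced by glucocorticoids, chr9:75766673-75785309, plus strand) was scarce, at 4.06 (3.20 to 4.92), 5.11 (4.02 to 6.20) and 2.13 FPKM (1.34 to 2.92) in control, shDIS3L2 and shHNRNPU. Control and shDIS3L2 overlapped and shHNRNPU lay below both. Its log2 ratios of 0.27, -0.69 and, between the knockdowns, -0.97 did not reach the size rule, though the last passed it with a pseudocount of 0.1.

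S100A11 and S100A10 are close neighbours on chromosome 1, 38.1 kb apart, and their RNAs differed in order. The ratio of S100A11 to S100A10 in FPKM was 0.242 (0.219 to 0.267) in control, against 0.707 (0.641 to 0.778) in shDIS3L2 and 0.969 (0.859 to 1.09) in shHNRNPU. The first of these came with S100A10 in large excess, and the last with levels that could not be told apart.

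ANXA3 had the widest range of the members above 1 FPKM. ANXA3 (annexin A3, known from neutrophil granules and studied in liver tumours, chr4:79472673-79531597, plus strand) was at 15.1 FPKM (13.5 to 16.6) in control, against 56.4 (52.4 to 60.5) in shDIS3L2 and 7.10 (5.85 to 8.35) in shHNRNPU. The libraries were well separated, with shDIS3L2 highest. The level in shDIS3L2 was 3.75-fold that of control (3.15 to 4.49), log2 ratio 1.84, and shHNRNPU was 7.95-fold lower than shDIS3L2 (6.27 to 10.3), log2 ratio -2.83. Against control the shHNRNPU library had a log2 ratio of -0.99, just inside the limit of the size rule. It became -1.15 after rescaling and -1.07 with a pseudocount of 0.1, both past the rule.

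ANXA4 was lower in both knockdown libraries. ANXA4 (annexin A4, which assembles into trimers on the membranes of epithelial cells, chr2:69871557-70053596, plus strand) was at 160 FPKM (153 to 166) in control, against 42.8 (39.8 to 45.8) in shDIS3L2 and 49.5 (46.4 to 52.7) in shHNRNPU. Control stood alone at the top, and the knockdown libraries differed little from each other, with a log2 ratio of 0.21. The level was 3.73-fold lower in shDIS3L2 (3.34 to 4.17), log2 ratio -1.87, and 3.22-fold lower in shHNRNPU (2.90 to 3.58), log2 ratio -1.67. The ANXA4 locus overlaps that of AAK1, a kinase gene at 2.67, 5.05 and 1.91 FPKM in control, shDIS3L2 and shHNRNPU. Strand-specific library preparation is not mentioned for this kit, so reads in the overlap cannot be assigned by strand.

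ANXA5 passed the size rule in no comparison. ANXA5 (annexin A5, the phosphatidylserine-binding protein used to stain dying cells, chr4:122589110-122618268, minus strand) was at 252 (240 to 263), 415 (396 to 433) and 356 FPKM (340 to 372) in control, shDIS3L2 and shHNRNPU. Control was lowest and the 3 intervals lay apart. The log2 ratios of 0.72, 0.50 and, between the knockdowns, -0.22 stayed under the size rule. ANXA5 was the only member whose interval in shHNRNPU lay above that in control.

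S100A4 moved in opposite directions in the knockdown libraries. S100A4 (metastasin, which binds the nonmuscle myosin heavy chain MYH9, chr1:153516089-153522612, minus strand) was at 8.39 FPKM (6.33 to 10.5) in control, against 18.2 (14.9 to 21.4) in shDIS3L2 and 3.42 (1.92 to 4.92) in shHNRNPU. The intervals did not overlap. The log2 ratio was 1.03 in shDIS3L2 and -1.09 in shHNRNPU against control, and shHNRNPU was 5.31-fold lower than shDIS3L2 (3.03 to 11.2), log2 ratio -2.12. The first call sits at the limit: it became 0.92 after rescaling and 0.79 with a pseudocount of 5, and the call in shHNRNPU became -0.67 with that pseudocount. The S100A4 locus contains that of S100A3, which is described with the other S100 genes.

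S100A14 was lower in both knockdown libraries, at low levels. S100A14, an S100 gene of epithelial cells (chr1:153586731-153589462, minus strand), was at 7.55 FPKM (6.14 to 8.97) in control, against 3.53 (2.33 to 4.73) in shDIS3L2 and 2.80 (1.71 to 3.89) in shHNRNPU. Control lay above both knockdowns, and the knockdowns overlapped. The log2 ratio passed the size rule in shHNRNPU, at -1.17, and not in shDIS3L2, at -0.92. The latter became -1.02 after rescaling and -1.07 with a pseudocount of 0.1, and the former became -0.69 with a pseudocount of 5.

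S100A6 could not be compared. S100A6 (calcyclin, named for its link to the cell cycle, chr1:153507075-153508720, minus strand) was at 0.166 FPKM (0 to 0.786) in control, against 1.34 (0 to 3.42) in shDIS3L2 and 0.112 (0 to 0.676) in shHNRNPU. Each interval reaches 0 and all overlap. It is the only member whose mean FPKM was below 1.

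Promoter sequences are shown for genes with contrasting patterns: ANXA2 and S100A4, highest in shDIS3L2 and lowest in shHNRNPU, S100A11, highest in shDIS3L2 with the other libraries overlapping, and S100A14, with control above both knockdowns. They come from RefSeq on GRCh38.p14, a later build than the hg19 of the expression files, and all 10 members were matched. Each run is the stretch free of annotated exons within the 250 bases before the gene's start, 5′ to 3′ on the gene's strand, all 4 on the minus strand. Capitals mark matches on either strand to the letters TGANTCA of AP-1, GGAATG of the TEAD factors, GGGCGG of SP1 sites, the CCAAT box and the TATAAA of a TATA box. The ANXA2 run lies at chr15:60398044-60398236, S100A11 at chr1:152037036-152037254, S100A4 at chr1:153545886-153546056 and S100A14 at chr1:153616356-153616575.
ANXA2: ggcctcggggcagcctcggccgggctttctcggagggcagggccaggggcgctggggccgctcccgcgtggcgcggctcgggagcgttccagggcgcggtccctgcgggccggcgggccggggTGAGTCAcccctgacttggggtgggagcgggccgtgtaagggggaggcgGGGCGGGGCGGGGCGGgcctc
S100A11: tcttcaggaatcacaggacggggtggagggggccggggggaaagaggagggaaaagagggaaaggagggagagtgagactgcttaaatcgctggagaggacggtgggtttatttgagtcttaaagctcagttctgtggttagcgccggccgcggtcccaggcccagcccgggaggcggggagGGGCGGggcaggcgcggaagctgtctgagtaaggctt
S100A4: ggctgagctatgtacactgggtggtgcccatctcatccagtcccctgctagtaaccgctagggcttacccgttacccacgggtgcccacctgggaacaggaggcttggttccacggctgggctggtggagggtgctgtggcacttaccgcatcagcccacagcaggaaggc
S100A14: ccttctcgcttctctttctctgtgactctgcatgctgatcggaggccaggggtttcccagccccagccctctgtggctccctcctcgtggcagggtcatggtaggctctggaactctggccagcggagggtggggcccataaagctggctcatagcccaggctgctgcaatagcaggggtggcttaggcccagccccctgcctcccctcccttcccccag

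In the ANXA2 run the capitals mark 1 AP-1 match followed by 3 overlapping SP1 matches, and in the S100A11 run 1 SP1 match. The S100A4 and S100A14 runs hold none of the 5 motifs. Over the whole 250 bases, ANXA2 was the only member with an AP-1 match, which 6.60% of all 27305 promoters of that length in the table hold, and no member had a TEAD match, which 11.9% hold. SP1 matches were in the windows of ANXA2, ANXA4, ANXA5, S100A6, S100A10 and S100A11, against 42.3% of all promoters. TATAAA was in those of ANXA1, ANXA2 and S100A4, against 11.1%, and CCAAT in that of ANXA1, against 33.0%. The GC content of the window was 38.4% for ANXA1 and 62.8% to 78.8% for the other members, beside a median of 58% over all promoters. These are letter matches in a short window, and no binding was measured.

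In shDIS3L2 against control ANXA3, S100A11 and S100A4 were higher and ANXA4 was lower, while ANXA2 and ANXA5 had log2 ratios of 0.80 and 0.72, under the size rule. Of the 10 members, 3 were called higher, where 8.53% of all loci were, and 1 was called lower, where 6.79% were. The intervals lay apart for 8 members (57.7% of all loci), 5 of them above control (32.9%) and 3 below (24.8%). The median log2 ratio of the 10 was 0.76 beside 0.09 over all loci. These 10 include S100A6, which falls below the filter set on all loci, and without it the median of the 9 was 0.72. All calls held with every locus of a name summed. Rescaling reversed the balance of calls over all loci, with the higher part of those calls going from 55.7% to 45.4%. It left 2 members higher (ANXA3 and S100A11), where 6.91% of all loci were, and 2 lower (ANXA4 and S100A14), where 8.32% were.

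In shHNRNPU against control S100A10, ANXA4, S100A14 and S100A4 were lower, and no member was higher. Of the 10 members, 4 were called lower, where 6.89% of all loci were, and 0 were called higher, where 7.47% were. The intervals lay apart for 8 (57.8% of all loci), 7 of them below control (23.2%) and only ANXA5 above (34.6%). The median log2 ratio of the 10 was -0.84, and -0.99 for the 9 without S100A6, beside 0.11 over all loci. After rescaling 5 members were lower, ANXA3 being added, where 8.92% of all loci were, and 0 were higher, where 5.29% were. Among the calls over all loci, the part that was higher went from 52% to 37.2%.

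Between the knockdowns ANXA3, S100A4, S100A10, ANXA2 and S100A11 were lower in shHNRNPU than in shDIS3L2. Of the 10 members, 5 were called lower, where 10.1% of all loci were, and 0 were called higher, where 9.24% were. The intervals lay apart for 8 (59.7% of all loci), 7 of them below (28.4%) and that of ANXA4 above (31.3%). The median log2 ratio of the 10 was -1.05, and -1.04 for the 9 without S100A6, beside 0.03 over all loci. The 5 annexin members together summed to 1302 FPKM in control, 2035 in shDIS3L2 and 958 in shHNRNPU, with ANXA2 holding 66.9%, 74.5% and 56.7% of the sum. The 5 S100 members summed to 1065, 1104 and 449 FPKM, with S100A10 holding 79.3%, 57.4% and 50.1%. The sum of the S100 members was thus close in control and shDIS3L2 although S100A10 and S100A11 differed between them in opposite directions.

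**Figure D2:**
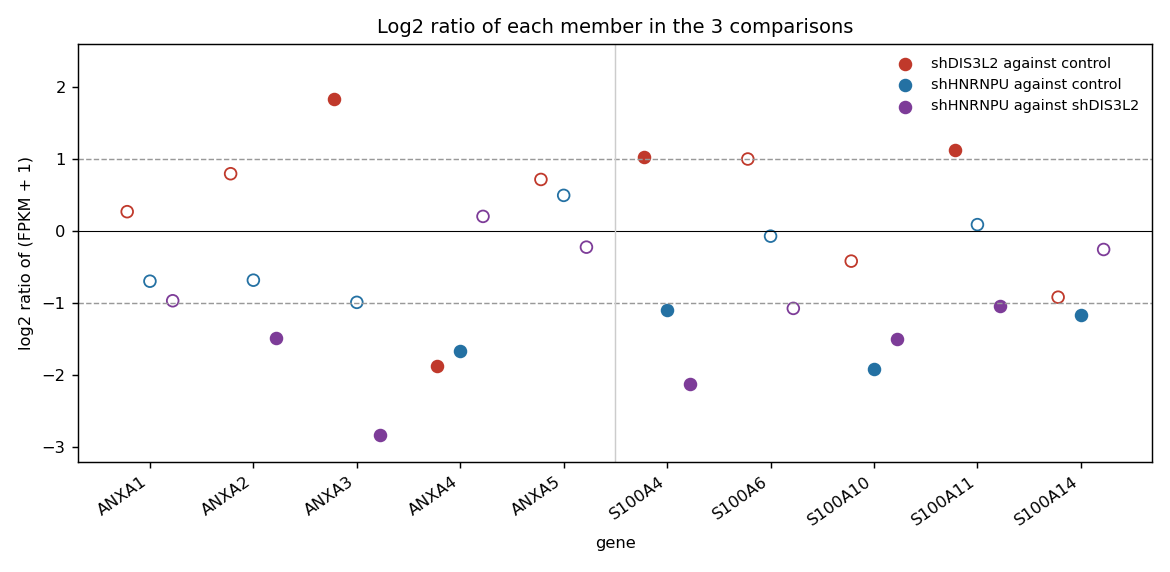
Log2 ratio of FPKM plus 1 for the 10 genes in the 3 comparisons (red shDIS3L2 against control, blue shHNRNPU against control, purple shHNRNPU against shDIS3L2). Filled points pass the size rule, open points do not, and the dashed lines mark 1 and -1; no blue or purple point is filled above 0.

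**Figure D3:**
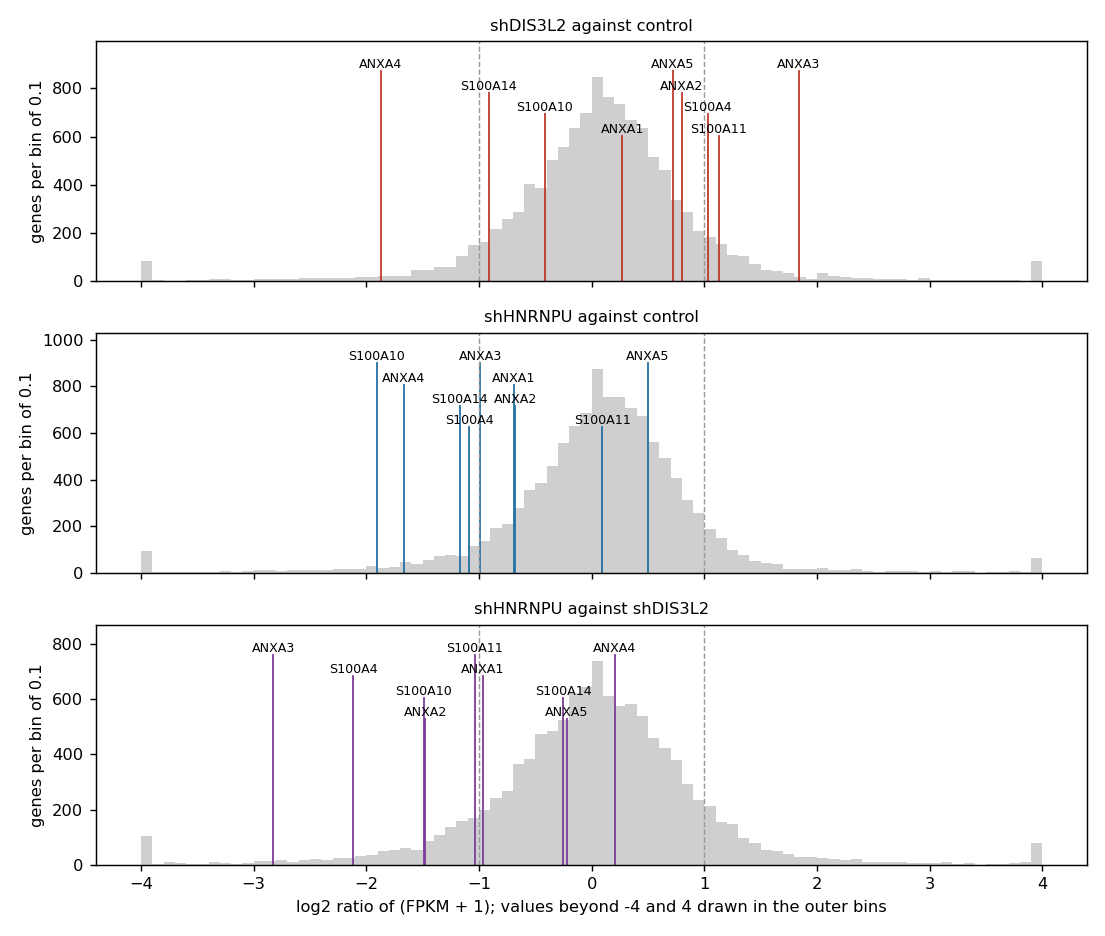
Histograms of the log2 ratio over all 11445 loci in each comparison (number of genes per bin of 0.1, values beyond the axis gathered in the outer bins), with coloured lines at the 9 members whose mean FPKM is at least 1. Line heights only separate the names, and the dashed lines mark 1 and -1. In the lowest panel, shHNRNPU against shDIS3L2, 8 of the 9 lines lie left of 0 and ANXA4 lies right of it.

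Some markers of liver cell states differed between the same libraries. In shDIS3L2 5 of 10 hepatocyte markers were lower (6.79% of all loci) and 1 higher (8.53%) than control, with a summed level of 6780 against 17673 FPKM. In shHNRNPU 3 were lower (6.89%) and 0 higher (7.47%), with a sum of 11991. SERPINA1 alone held most of the control sum, at 11439, 2865 and 6710 FPKM in control, shDIS3L2 and shHNRNPU. The abundant KRT8 and KRT18 were not called in either knockdown. The 1 higher hepatocyte marker in shDIS3L2 was FGB, at 6.21, 17.9 and 1.93 FPKM, with log2 ratios of 1.39 and -1.30 against control. Like ANXA3 and S100A4 it was highest in shDIS3L2 and lowest in shHNRNPU. Among 5 biliary and progenitor markers the sum was 81.6, 133 and 87.5 FPKM in control, shDIS3L2 and shHNRNPU. KRT7, a keratin of bile duct cells, was at 7.04, 32.2 and 6.08 FPKM, and SOX9, a transcription factor of biliary and progenitor cells, at 4.08, 10.0 and 3.09, both higher in shDIS3L2 as ANXA3, S100A4 and S100A11 were. The other 3 markers of that list were not called. EPCAM, which held most of the sum, was at 69.0, 88.1 and 77.7 FPKM. KRT19 was at 0.568, 1.71 and 0.679 FPKM with overlapping intervals, and CFTR, a chloride channel of bile ducts, at 0.881, 0.663 and 0. The part of these marker differences in the members' levels was not tested. Of 6 blood and myeloid markers only LYZ (181, 33.5 and 70.8 FPKM) and the locus merged with CD68 were above 1 FPKM, and the latter also holds the abundant gene EIF4A1. PTPRC, the pan-leukocyte marker, was listed at 0 in control and shDIS3L2 and at 0.442 in shHNRNPU.

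Among the other annexins, ANXA9 was lower in both knockdown libraries. Of the 9 listed, 5 had a mean FPKM of at least 1. In shDIS3L2 1 was higher (8.53% of all loci) and 1 lower (6.79%), and in shHNRNPU 0 were higher (7.47%) and 1 lower (6.89%). Between the knockdowns 0 were called (9.24% higher and 10.1% lower over all loci). ANXA9, an annexin whose calcium-binding sites are degenerate, was at 29.5 FPKM in control, 7.36 in shDIS3L2 and 14.1 in shHNRNPU. It was lower in both knockdowns, with log2 ratios of -1.87 and -1.02, the same side as ANXA4. ANXA7, at 51.9, 59.2 and 58.8 FPKM, and ANXA11, at 161, 128 and 170, stayed under the size rule. ANXA8 was listed at 0.219, 4.61 and 0.431 FPKM and was called higher in shDIS3L2, with a log2 ratio of 2.2. Its interval was wide in shDIS3L2, 1.64 to 7.57 FPKM, against 0 to 0.677 in control. ANXA8 passed the filter on mean FPKM only through its value in shDIS3L2, so the call is not independent of the filter. Its locus is also merged with others, and it has near-identical copies. One of these, ANXA8L1, was at 0.456, 1.53 and 1.16 FPKM with overlapping intervals, so how reads were split among the copies is uncertain. ANXA6, with a mean of 0.770 FPKM, fell below the filter, and ANXA10 and ANXA13 did not exceed 0.0812 FPKM.

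**Figure D4:**
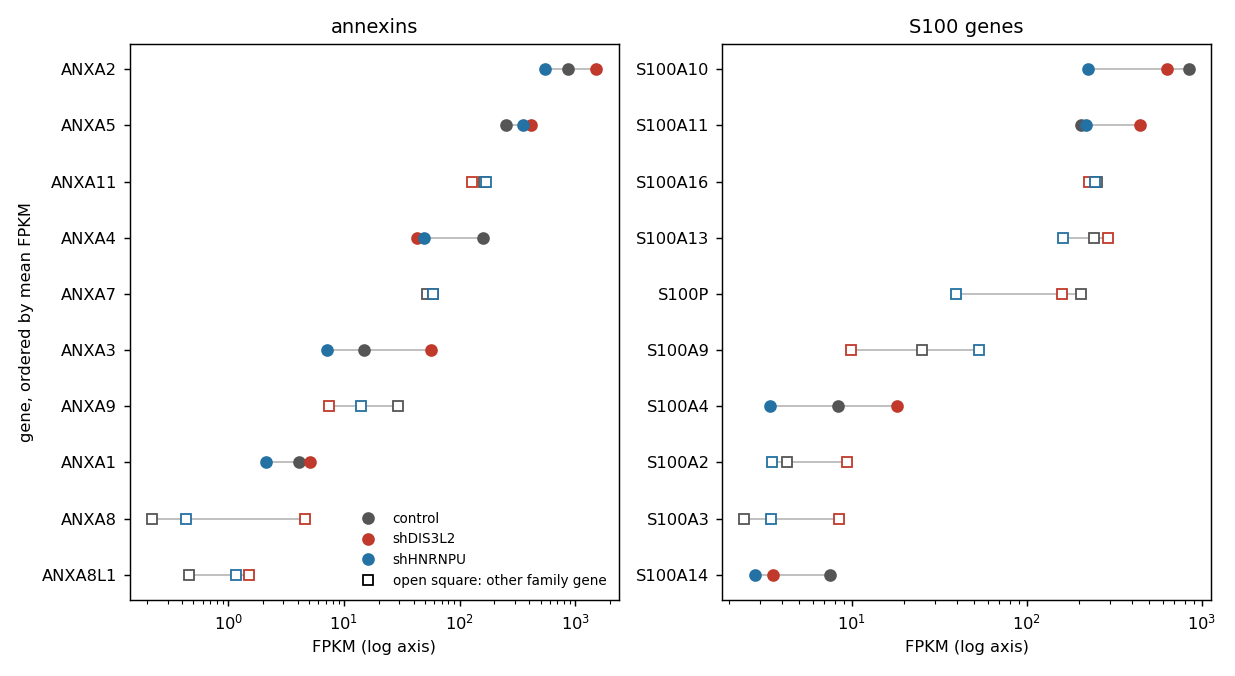
FPKM on a log axis of every annexin (left) and S100 gene (right) with a mean of at least 1 FPKM, ordered by mean, with 1 symbol per library joined by a line. Filled circles are the members and open squares the other genes of the families; ANXA7, ANXA11 and S100A16 have symbols close together, while S100P and S100A9 spread widely. S100A6 is not drawn, since its mean is below 1.

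The other S100 genes gave calls in both directions. Of the 15 listed, 6 had a mean FPKM of at least 1, and 7 (S100A1, S100A7, S100A7A, S100A12, S100B, S100G and S100Z) were listed at 0 in all libraries. In shDIS3L2 1 was higher (8.53% of all loci) and 1 lower (6.79%), and in shHNRNPU 1 was higher (7.47%) and 1 lower (6.89%). Between the knockdowns 1 was higher (9.24%) and 3 lower (10.1%). S100P, first found in placenta and abundant in many carcinomas, was at 204 FPKM (183 to 225) in control, against 160 (139 to 181) in shDIS3L2 and 39.3 (35.7 to 42.8) in shHNRNPU. Like S100A10 it was lowest in shHNRNPU, with a log2 ratio of -2.35 against control and -2.00 against shDIS3L2. S100A9, the calgranulin that pairs with S100A8 in myeloid cells, was at 25.4 (21.9 to 28.9), 9.95 (7.47 to 12.4) and 53.4 FPKM (47.8 to 58.9). It was lower in shDIS3L2 (log2 ratio -1.27) and higher in shHNRNPU (1.04), the reverse of S100A4. Its partner S100A8 was at no more than 0.196 FPKM.

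S100A3 and S100A2, which lie near S100A4, were like it lower in shHNRNPU than in shDIS3L2, while the intervals of S100A6, also nearby, overlapped. S100A3, nested in the S100A4 locus, was at 2.44 FPKM in control, 8.45 in shDIS3L2 and 3.47 in shHNRNPU, higher in shDIS3L2 with a log2 ratio of 1.46. S100A2, a gene of stratified epithelia 11 kb from S100A4, was at 4.25, 9.48 and 3.53 FPKM, with a log2 ratio of 0.997 in shDIS3L2 that just missed the rule. Their log2 ratios between the knockdowns were -1.08 and -1.21. Against control in shHNRNPU, where S100A4 was lower, S100A3 had a log2 ratio of 0.38 and S100A2 one of -0.21, and both overlapped with control. Since S100A3 lies within S100A4, reads of one could have been counted for the other.

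The 5 S100 members lie on the long arm of chromosome 1, where most of the family is clustered, within 1.63 Mb in the hg19 loci. S100A6, S100A4 and S100A14 fall within 82.4 kb of each other, and 1.49 Mb separates S100A6 from S100A11. Within 100 kb of a member there were 8 loci with a mean FPKM of at least 1. Of these, 1 was higher (8.53% of all loci) and 1 lower (6.79%) in shDIS3L2, and 0 in either direction in shHNRNPU (7.47% and 6.89%). Between the knockdowns 1 was higher (9.24%) and 2 lower (10.1%). S100A16, 1.03 kb from S100A14, was at 252, 228 and 245 FPKM, and the locus merged with S100A13 was at 244, 293 and 162, neither past the size rule. ILF2, which encodes a double-stranded RNA-binding protein, was at 198, 260 and 255 FPKM, and CHTOP, which encodes a chromatin and RNA export protein, at 98, 71.9 and 60.7. THEM4, a thioesterase gene near S100A10, was at 9.42, 4.79 and 6.14 FPKM. SNAPIN, a gene of vesicle fusion, was at 62.2 and 58.1 FPKM in control and shHNRNPU and was listed at 0 in shDIS3L2, which can be a failed estimate, since 108 genes were listed at 0 there with both other libraries at 5 FPKM or more.

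Binding partners and receptors of the members were mostly under the size rule, as most loci were. Of 18 listed, 9 had a mean FPKM of at least 1. In shDIS3L2 0 were higher (8.53% of all loci) and 1 lower (6.79%). In shHNRNPU 0 were called (7.47% higher and 6.89% lower over all loci). Between the knockdowns 1 was higher (9.24%) and 1 lower (10.1%). The lower call in shDIS3L2 and the higher one between the knockdowns were a locus merged from AGER, the receptor RAGE that binds several S100 proteins, and PBX2. It was listed at 67.2 FPKM in control, 0 in shDIS3L2 and 72.5 in shHNRNPU, which again can be a failed estimate, and leaving out loci listed at 0 left no call in shDIS3L2. SUGT1, a co-chaperone that binds S100A6, was at 35.6, 64.4 and 19.5 FPKM and was lower in shHNRNPU than in shDIS3L2, log2 ratio -1.67.

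Partners named next for the complexes they form were chosen after their values were seen. AHNAK, a very large scaffold protein recruited by the ANXA2 and S100A10 complex, was at 7.07, 6.49 and 3.42 FPKM, with log2 ratios of -0.11 and -0.87 against control. MYH9, the partner of S100A4, was at 61.6, 88.9 and 70.6 FPKM, and CACYBP, the partner of S100A6, at 94.2, 81.3 and 136. FPR2, the receptor of ANXA1, and PLG, the plasminogen bound at the surface by S100A10, were listed at 0 in every library.

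Among plasma membrane repair genes, the group in which annexins form the cap over a wound, 15 of 18 had a mean FPKM of at least 1. In shDIS3L2 1 was higher (8.53% of all loci) and 0 lower (6.79%), with a median log2 ratio of 0.47. CAV1, the main coat protein of caveolae, was the higher one, at 10.6 FPKM in control, 34.2 in shDIS3L2 and 20.1 in shHNRNPU, log2 ratio 1.60. In shHNRNPU 1 was higher (7.47% of all loci) and 0 lower (6.89%), with a median of 0.11. VPS4B, an ATPase that takes apart the ESCRT-III filaments that pinch off damaged membrane, was at 5.21, 10.8 and 13.3 FPKM, log2 ratio 1.21 in shHNRNPU. Between the knockdowns CAPN2, a calpain protease activated by the calcium that enters a wound, was the 1 called lower, at 28.8, 47.5 and 16.5 FPKM, log2 ratio -1.47. None was higher there, and over all loci 9.24% were higher and 10.1% lower.

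EF-hand proteins outside the S100 family served as a comparison list of 22 genes, all of which had a mean FPKM of at least 1. In shDIS3L2 2 were higher (8.53% of all loci) and 1 lower (6.79%), and in shHNRNPU 2 were higher (7.47%) and 2 lower (6.89%). Between the knockdowns 2 were higher (9.24%) and 4 lower (10.1%). The median log2 ratios of the 22 genes were 0.23, 0.37 and 0.02, beside 0.76, -0.84 and -1.05 for the members. In the same order the medians were 0.19, 0.18 and -0.009 for the other annexins that passed the filter on mean FPKM. For the other S100 genes that passed it the medians were 0.06, -0.13 and -0.96. Taken by family, the medians between the knockdowns were -1.26 for the 4 S100 members that passed it and -0.97 for the 5 annexin members. The other S100 genes ran there from -2.00 (S100P) to 2.31 (S100A9), so their median does not describe a shared pattern. Because the members were chosen with earlier results known, their contrast with the other lists is descriptive only. MYL9, a regulatory light chain of smooth muscle and nonmuscle myosin, was at 90.7 FPKM in control, 479 in shDIS3L2 and 169 in shHNRNPU, log2 ratio 2.39 in shDIS3L2 and -1.50 between the knockdowns. GCA (grancalcin) was at 1.73, 4.80 and 4.62 FPKM and was higher in both, with log2 ratios of 1.09 and 1.04. CALM3, a calmodulin gene, was at 116, 94.7 and 215 FPKM and was higher in shHNRNPU than in shDIS3L2, log2 ratio 1.17.

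In shHNRNPU the other calls of that list were EFHD1, a mitochondrial protein gene that was higher at 2.06, 2.76 and 5.43 FPKM, and RCN1 and MYL12A, which were lower. RCN1, a protein of the endoplasmic reticulum, was at 36.0, 60.4 and 15.4 FPKM, log2 ratio -1.18 against control and -1.91 against shDIS3L2. MYL12A, another myosin light chain gene, was at 773, 588 and 155 FPKM, but in control its locus was merged with the similar MYL12B, so its ratios against control are uncertain. MYL6, the essential myosin light chain gene, was at 3285, 5516 and 2647 FPKM and was lower in shHNRNPU than in shDIS3L2, log2 ratio -1.06.

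For the annexin and the S100 member with the largest log2 ratio in size against control, ANXA4 and S100A10, the nearest genes were sought by distance over the log2 ratios of both knockdowns against control, among 6393 non-member genes. The distance rests on 3 libraries that share 1 control, so it describes a pattern of few values. Nearest to ANXA4 were ACER3, a ceramidase of the endoplasmic reticulum and Golgi (distance 0.13), PRODH2, a mitochondrial enzyme of hydroxyproline breakdown (0.20), and HKDC1, a hexokinase (0.22). ACER3, for example, was at 14.9 FPKM in control, 3.76 in shDIS3L2 and 4.01 in shHNRNPU. Nearest to S100A10 were ALG12, a mannosyltransferase of N-glycan assembly (0.03), FGF12, an intracellular fibroblast growth factor homologue (0.08), and ACO1, cytosolic aconitase (0.11). ALG12 was at 21.5, 16.2 and 4.96 FPKM.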

How the data were processed

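RNA-seq of 3 PLC libraries, 1 per group, was used. Per the submitters' processing notes, TopHat2 2.0.12, Cufflinks 2.2.1 and build hg19 were used. Per the labels' protocols, libraries were made with a NEBNext Ultra RNA kit. The deposited values are FPKM per gene with lower and upper bounds and a status, per the file headers. Fragment counts are not given there, so depth is unknown. Over the 9 members whose mean FPKM was 1 or more, the median distance of the bounds from FPKM was 6.28% in control, 6.96% in shDIS3L2 and 6.52% in shHNRNPU.

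From these, genes were matched by name with Python 3.11.15, pandas 2.3.3 and numpy 2.4.6, names merged at 1 locus in any library were counted once over all loci (in a gene list each name has its own values, so MYL12A and MYL12B both count), and log2 ratios were taken with a pseudocount of 1 over loci with a mean FPKM of at least 1. That pseudocount understates the change of low genes. Folds are ratios of FPKM without it, with the range the bounds allow. With 1 library per group there was no test. Start positions were raised by 1 to count from 1.

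The members and lists were chosen with earlier results of these data known. Named genes were all members, the annexin and S100 genes with a mean FPKM of at least 1, up to 4 called genes per list, comparison and direction with the largest ratios, the 3 genes nearest to ANXA4 and to S100A10, and loci within 100 kb of an S100 member. Cell type markers and some binding partners were named outside this rule. Alternatives were pseudocounts of 0.1 and 5, rescaling, a 1.5-fold threshold, no size threshold, filters on FPKM, summing loci and leaving out genes listed at 0. One endothelial marker was not matched. Protein sequences were not used here. One gene that the naming rule gives is not reported here.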

Additional observations from a re-analysis of the deposited data

How the results depend on the processing

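Of the 30 ratios (10 genes in 3 comparisons), all kept their direction and side of the size rule when loci were summed, 27 with a pseudocount of 0.1 (3 newly past it), 27 with a pseudocount of 5 (3 no longer past it) and 23 with a 1.5-fold threshold (7 newly past it). After rescaling 26 did so, 2 were newly past the rule, 1 was no longer past it, and S100A11 in shHNRNPU against control turned to -0.085. In shDIS3L2 against control, the number of members called lower became 2 with a pseudocount of 0.1, with rescaling and with a 1.5-fold threshold, and 3 with no size threshold. The number called higher became 5 with a 1.5-fold or no size threshold, and the members' median log2 ratio 0.50 with a pseudocount of 5. In shHNRNPU against control, the number called lower became 2 with a pseudocount of 5 and 7 with a 1.5-fold or no size threshold, and 1 was called higher with no size threshold. The median there was -0.99 with a pseudocount of 0.1, -0.67 with 5 and -1.0 after rescaling. Between the knockdowns the median was -1.35 with a pseudocount of 0.1 and -0.76 with 5, and 1 member was called higher with no size threshold. Over all loci, a pseudocount of 5 lowered the higher and lower calls to 484 and 408 in shDIS3L2 (from 976 and 777), 360 and 463 in shHNRNPU (from 855 and 788), and 497 and 661 between the knockdowns (from 1058 and 1161). A 1.5-fold threshold raised them to 2157 and 1631, 2210 and 1527, and 2246 and 2124, and no size threshold to 3764 and 2843, 3960 and 2654, and 3583 and 3253. A mean FPKM of at least 5 lowered the higher calls in shHNRNPU to 540 over all loci and left 0 other annexins, 0 other S100 genes and 1 EF-hand gene called higher in shDIS3L2 and 0 EF-hand genes in shHNRNPU, so the calls of ANXA8, S100A3, GCA and EFHD1 rest on the lower filter. The moves with other thresholds, pseudocounts and filters follow from how those alternatives are built. Those with rescaling depend on how the libraries are scaled, which is not settled for control. No paired analysis was possible because each group holds 1 library. The depth is unknown, and S100A6, S100A4, S100A14 and ANXA1 had the widest intervals.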
